A study of Mus musculus with 6 samples.

Results

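Cytosolic ribosomal proteins are the protein parts of the ribosome that translates nuclear-encoded mRNA. They were followed here in E14, a line of mouse embryonic stem cells kept feeder-free on gelatin with serum and LIF, 4 days after transfection. The members are the array probes whose annotated gene symbol is Rpl or Rps with a number, with the suffix a, l, x or none, or Rplp0 to Rplp2 or Rpsa. Kinases of the Rps6k type, Rps19bp1 and pseudogenes are left out. Of the 45281 probes on the array, 88 met this rule, for 59 genes, and 72 of them, for 53 genes, were detected above background on 3 or more of the 6 arrays. These 72 probes stand for 32 genes of the large subunit and 21 of the small subunit.

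Both groups consist of E14 cells transfected with an shRNA plasmid, and they differ in its target. In 3 samples the shRNA had a scrambled sequence, and in the other 3 it was labelled as directed at Ncoa3, a coactivator of nuclear receptors. All 6 samples are labelled as biological replicates of their group. The share of cells that took up the plasmid is not stated in the labels. Their protocol field for the treatment speaks of an Esrrb plasmid and not of Ncoa3. The 1 Ncoa3 probe was not detected on any array, with a raw intensity of 93.0 ± 6.90 (SD, n = 3) in scrambled and 89.8 ± 1.92 (SD, n = 3) in knockdown samples, so these arrays do not check the knockdown. Of the 2 Esrrb probes, 1 was detected on 0 arrays. The other had a raw intensity of 16593 ± 368 (SD, n = 3) in scrambled and 11069 ± 377 (SD, n = 3) in knockdown samples, and its log2 level fell by 0.62 ± 0.07 (SE, adjusted p = 3.62e-04).

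A ribosome holds 1 copy of nearly every ribosomal protein, and the 2 subunits are built in the nucleolus before they join on an mRNA. Cells therefore make these proteins in matched amounts, and much of the control acts on translation: most of their mRNAs begin with a terminal oligopyrimidine tract, an unbroken run of C and T through which mTORC1 and the binding protein Larp1 set how well the mRNA is translated. Embryonic stem cells divide fast and carry abundant ribosomal protein mRNA. An array of total RNA measures the amount of mRNA and not its translation.

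The start of the gene is shown for some of the members that the results below turn on, because the oligopyrimidine tract is the feature these genes are known to share. Only genes with a single annotated start are shown, and other called genes, Rpl3l and Rps27l among them, are not. Each window holds the 15 bases before and the 15 bases from the annotated start, on the gene's own strand, from RefSeq on build GRCm38.p6, and capitals mark the longest unbroken run of C and T in it. The first 4 genes had a probe past the test and the other 4 did not.
Rpl38 (chr11:114668565-114668594, + strand): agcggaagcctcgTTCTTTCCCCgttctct
Rpl28 (chr7:4792950-4792979, + strand): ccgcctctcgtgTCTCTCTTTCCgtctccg
Rpl7a (chr2:26910792-26910821, + strand): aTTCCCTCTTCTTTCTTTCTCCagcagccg
Rpl4 (chr9:64173372-64173401, + strand): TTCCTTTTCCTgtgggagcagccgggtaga
Rps6 (chr4:86857353-86857382, - strand): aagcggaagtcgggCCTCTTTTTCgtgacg
Rplp2 (chr7:141447636-141447665, + strand): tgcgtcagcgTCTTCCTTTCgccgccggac
Rplp0 (chr5:115559452-115559481, + strand): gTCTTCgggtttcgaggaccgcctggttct
Rps4x (chrX:102189377-102189406, - strand): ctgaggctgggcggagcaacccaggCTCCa

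The longest run was 21 bases in Rpl7a, 11 in Rpl28 and Rpl4, and 10 in Rpl38, Rps6 and Rplp2, whereas the annotated starts of Rplp0 and Rps4x had runs of 5 and 4. Of 58 annotated starts of 48 member genes, 32 (55.2%) held a run of at least 6, against 29.2% of all 32851 starts in the table. Such a run may lie wholly before the start, as that of Rpl4 does, and then is not part of an mRNA that begins there. The longest run had at least 6 bases and met the start in 15 of the 58 (25.9%), against 9.68% of all starts. A run that ends on the last base before the start was also counted as meeting it. Among member genes with a kept probe, 6 of the 10 starts of genes with a probe past the test held a run of at least 6, and 23 of the 44 starts of the other genes (52.3%). Counting only runs that met the start, these were 4 of the 10 and 9 of the 44 (20.5%), and the difference was not tested. The annotated start need not be the one used in these cells.

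After quantile normalization, most ribosomal protein mRNAs were measured at nearly the same level in both groups. Of the 53 member genes, each taken on its brightest kept probe, 46 did not pass the test, 6 were lower and 1 was higher after knockdown. The changes, given throughout as knockdown minus scrambled on the log2 scale, ran from -0.59 for Rpl3l to 0.18 for Rps27l, with a median of -0.05. The lower genes were Rpl3l, Rpl7a, Rpl21, Rpl29, Rps4l and Rpl4, and the higher one was Rps27l. A gene passed the test when its limma p, adjusted by Benjamini-Hochberg over all 16674 kept probes, was under 0.05. Over all 9569 named genes, 46.8% passed, 22.4% higher and 24.4% lower, with a median change of -0.03. The members' 13.2% is below that share, and no test of this difference was made. The shares also do not hold the probe signal fixed. By probe, at a mean log2 level under 9, 45.5% of members and 42.9% of all kept probes passed. From 9 to 12 these were 33.3% and 48.1%, and from 12 to 14 they were 7.41% and 33.3%. At 14 and over they were 4.55% and 4.76%. With 1 array left out the member count of 7 ran from 2 to 5: it was 5 without scrambled replicate 1, 3 and 4 without scrambled replicates 2 and 3, and 4, 2 and 4 without knockdown replicates 1 to 3.

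A result that misses the test does not show equal levels, so the width of the interval matters. The 95% interval of the change lay within 1.25-fold in either direction for 40 of the 46 member genes that did not pass, and within 1.5-fold for 45 of them. The 6 whose interval reached past 1.25-fold were Rps25, Rplp0, Rpl24, Rpl6, Rps15a and Rpl23. These intervals come from the fit after quantile normalization and do not take in the choice of scaling. After median scaling over the kept probes, 13 of the 53 member genes were lower and 0 higher, with a median of -0.17. After median scaling over all probes, 2 were lower and 0 higher, with a median of -0.01. The widest interval belonged to Rps25, a small subunit protein known for its part in translation from viral entry sites, and ran from -0.68 to 0.21. Its log2 levels in scrambled samples, replicates 1 to 3, were 11.85, 11.58 and 12.27, and in knockdown samples 11.73, 11.39 and 11.87. These values overlap, and they differ within a group by more than the groups differ from each other.

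**Figure D1:**
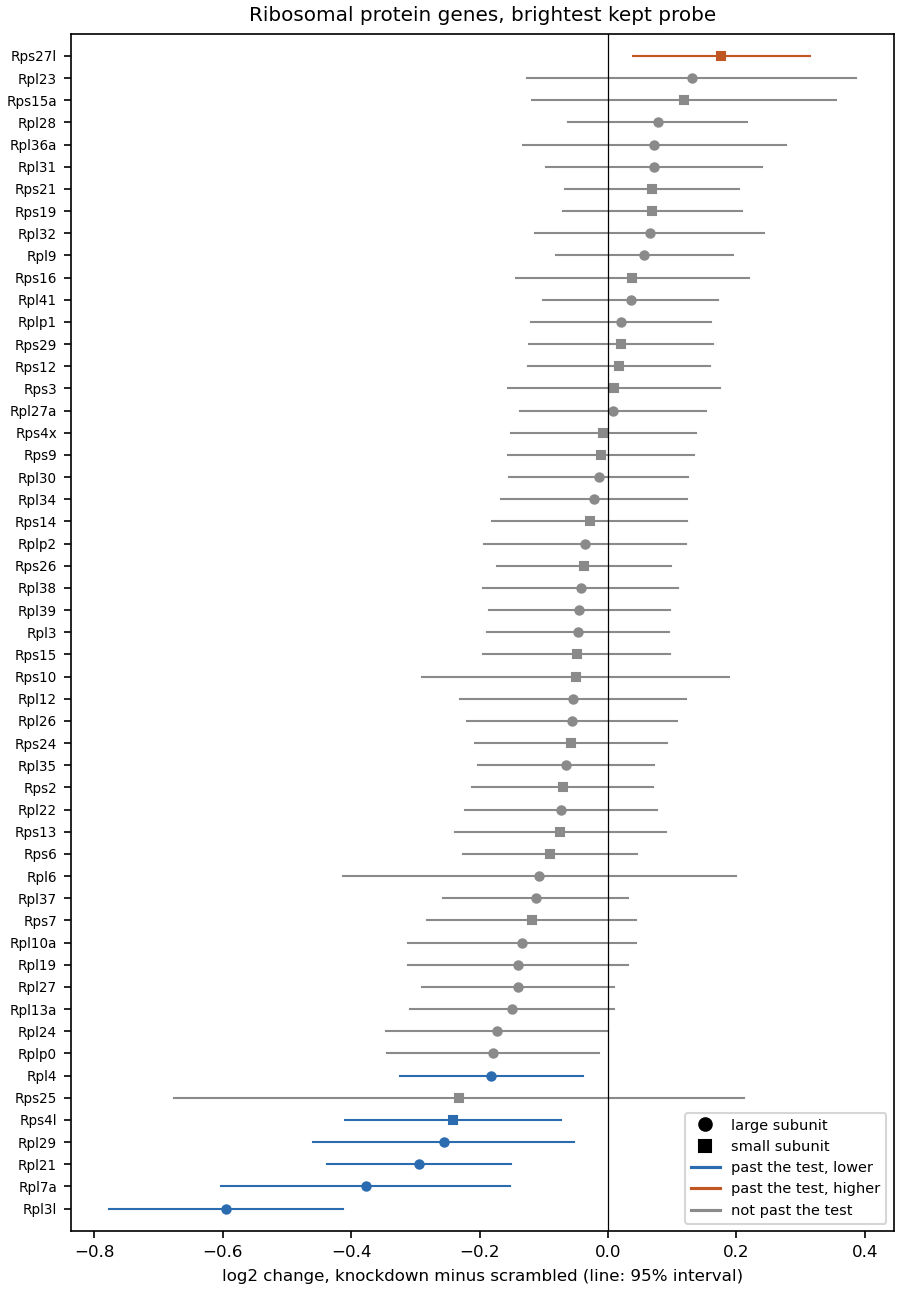
Log2 change (knockdown minus scrambled) of the 53 member genes on their brightest kept probe, with 95% intervals from limma; circles are large subunit genes, squares small subunit genes, blue lower, orange higher and grey not past the test. Most points lie near 0, and the 7 genes past the test run from Rpl3l at -0.59 to Rps27l at 0.18.

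Counted by probe, 11 of the 72 members were lower and 1 was higher, 16.7% in all, where 43.6% of all kept probes passed the test (20.9% higher and 22.7% lower). Groups did not overlap for 25 member probes (34.7%), 21 of them lower and 4 higher, against 55.2% of all kept probes. Neither comparison holds the probe signal fixed. The median log2 level over the 72 probes was 13.49, 13.44 and 13.53 in the scrambled samples and 13.41, 13.44 and 13.50 in the knockdown samples. The groups overlap in this summary. The count of lower probes was 10 without scrambled replicate 1, 9 without scrambled replicate 2 and 8 without scrambled replicate 3, and 9, 6 and 7 without knockdown replicates 1, 2 and 3. No member was called higher by limma with any of the 6 arrays left out, where 0 to 2 were higher at an unadjusted p under 0.05.

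The large subunit carries the centre where peptide bonds form, and the tunnel through which the new chain leaves. Of its 32 measured genes, 5 were lower and 27 did not pass, with a median change of -0.06. The small subunit reads the mRNA, and of its 21 measured genes 1 was lower, 1 was higher and 19 did not pass, with a median of -0.03. The shares over all named genes were 24.4% lower and 22.4% higher, with a median of -0.03. The direction of the small subunit median depended on the scaling: it was 0.02 with cyclic loess and 0.002 after median scaling over all probes, with 1 gene past the test in the first, which was higher, and 0 by limma in the second, where 2 had an unadjusted p under 0.05, both higher. The large subunit median stayed below 0 under every scaling tried, from -0.17 to -0.02. The median over all kept probes moved with the scaling too, to 0.007 with cyclic loess and 0.09 after median scaling over all probes. The difference between the subunits was not tested.

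Rpl3l had the largest fall among genes on their brightest probe. It is the paralog of Rpl3 that takes its place in heart and skeletal muscle, and its signal here was low. Its log2 levels were 7.10, 7.06 and 7.25 in scrambled samples, in the order of their numbers, and 6.46, 6.58 and 6.60 in knockdown samples. All knockdown arrays were below all scrambled arrays, and the level fell by 0.59 ± 0.08 (SE), or 1.51-fold, with an adjusted p of 8.06e-04. In raw intensity it ran from 191 to 213 in scrambled and from 156 to 178 in knockdown samples, and the change was -0.31 in the authors' normalized values. The ubiquitous Rpl3, which sits near the peptidyl transferase centre, had a change of -0.05 ± 0.06 (SE) and did not pass the test.

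Rpl7a, a large subunit protein, was measured at 10.79, 11.13 and 10.90 in scrambled samples and at 10.60, 10.50 and 10.59 in knockdown samples. The groups do not overlap, and scrambled replicate 2 is the highest of the 6. The level fell by 0.38 ± 0.10 (SE), or 1.30-fold, with an adjusted p of 0.0162, and it was not called without knockdown replicate 2 (-0.35, adjusted p = 0.0533).

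Rpl21 was lower on both of its brighter probes. The brightest read 8.95, 8.97 and 8.88 in scrambled samples and 8.65, 8.61 and 8.65 in knockdown samples, which is a change of -0.29 ± 0.06 (SE, adjusted p = 0.00678). The next read 8.48, 8.37 and 8.33 against 8.17, 8.13 and 8.09, a change of -0.26 ± 0.07 (SE, adjusted p = 0.0173). On both probes every knockdown array lay below every scrambled array. The third probe of Rpl21, at -0.18, was not called. Neither brighter probe passed when arrays were scaled by the median over all probes (-0.15 and -0.11), and the second was also not called without knockdown replicate 3 (-0.24, adjusted p = 0.0566) or in the authors' values (-0.12, adjusted p = 0.101).

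The other 3 lower genes changed less and were called less firmly. All 3 lost their call with cyclic loess, after median scaling over all probes, without the filter on dim probes and with a replicate block. Rpl29 is a large subunit protein without which mice live but stay small. It had a change of -0.26 ± 0.09 (SE, adjusted p = 0.0467), from 10.75, 10.97 and 10.93 to 10.74, 10.56 and 10.59. Scrambled replicate 1 and knockdown replicate 1 nearly touch. The call was lost without scrambled replicates 2 (-0.21) and 3 (-0.23), and without knockdown replicates 2 (-0.22) and 3 (-0.24). Rps4l, whose symbol marks it as similar to the X-linked Rps4x, read 13.16, 13.05 and 13.02 in scrambled and 12.86, 12.75 and 12.89 in knockdown samples, without overlap. Its change was -0.24 ± 0.07 (SE, adjusted p = 0.0292), and the call was lost without scrambled replicates 1 (-0.20) and 2 (-0.25), and without knockdown replicates 1 (-0.26) and 2 (-0.20). Rps4x itself read 14.93, 15.00 and 15.00 against 14.93, 15.01 and 14.98, which overlap, with a change of -0.01 ± 0.06 (SE). Whether a probe for one of these copies also binds mRNA of the other was not tested.

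Rpl4, which has a long loop that lines the exit tunnel, differed by the smallest called fall. Its levels were 12.14, 12.16 and 12.14 in scrambled and 11.97, 12.01 and 11.91 in knockdown samples. The replicates lie close together and the groups do not overlap. The change was -0.18 ± 0.06 (SE, adjusted p = 0.0447). It was not called with any 1 array left out, where it ran from -0.21 to -0.15: it was -0.186, -0.174 and -0.187 without scrambled replicates 1 to 3, and -0.182, -0.207 and -0.155 without knockdown replicates 1 to 3. Rpl29 and Rpl4 were named after their values were seen.

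Rps27l, a paralog of Rps27 that is known as a target of p53, was the only member probe called higher. It read 14.28, 14.34 and 14.28 in scrambled samples and 14.47, 14.49 and 14.47 in knockdown samples. All knockdown arrays lay above all scrambled arrays. The change was 0.18 ± 0.06 (SE), or 1.13-fold, with an adjusted p of 0.0445. It was not called with any 1 array left out: it was 0.168, 0.194 and 0.169 without scrambled replicates 1 to 3, and 0.186, 0.171 and 0.171 without knockdown replicates 1 to 3. After median scaling over the kept probes the change was 0.05, and after median scaling over all probes it was 0.21 with an adjusted p of 0.0691. The call was also lost without the filter on dim probes (adjusted p = 0.081) and with a replicate block (adjusted p = 0.088). Both measured genes of a list on the response to ribosomal stress, in which free ribosomal proteins bind Mdm2, were higher: Mdm2, the ubiquitin ligase of p53, by 1.10 ± 0.07 (SE) and the cell cycle inhibitor Cdkn1a by 0.78 ± 0.07 (SE). Of all named genes, 22.4% were higher. Mdm4, also on the list, was not kept, and Trp53 had no named probe. Whether the rises of Mdm2, Cdkn1a and Rps27l are linked to each other or to ribosomal stress was not tested. Rpl23, one of the ribosomal proteins known to bind Mdm2, had 3 probes with changes from 0.03 to 0.17, none past the test. Rpl23 was not among the members chosen by role. The other members known to bind Mdm2 are not set beside it, so it does not stand for them. Over all 53 member genes, 36 changes lay below 0 and 17 above.

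**Figure D2:**
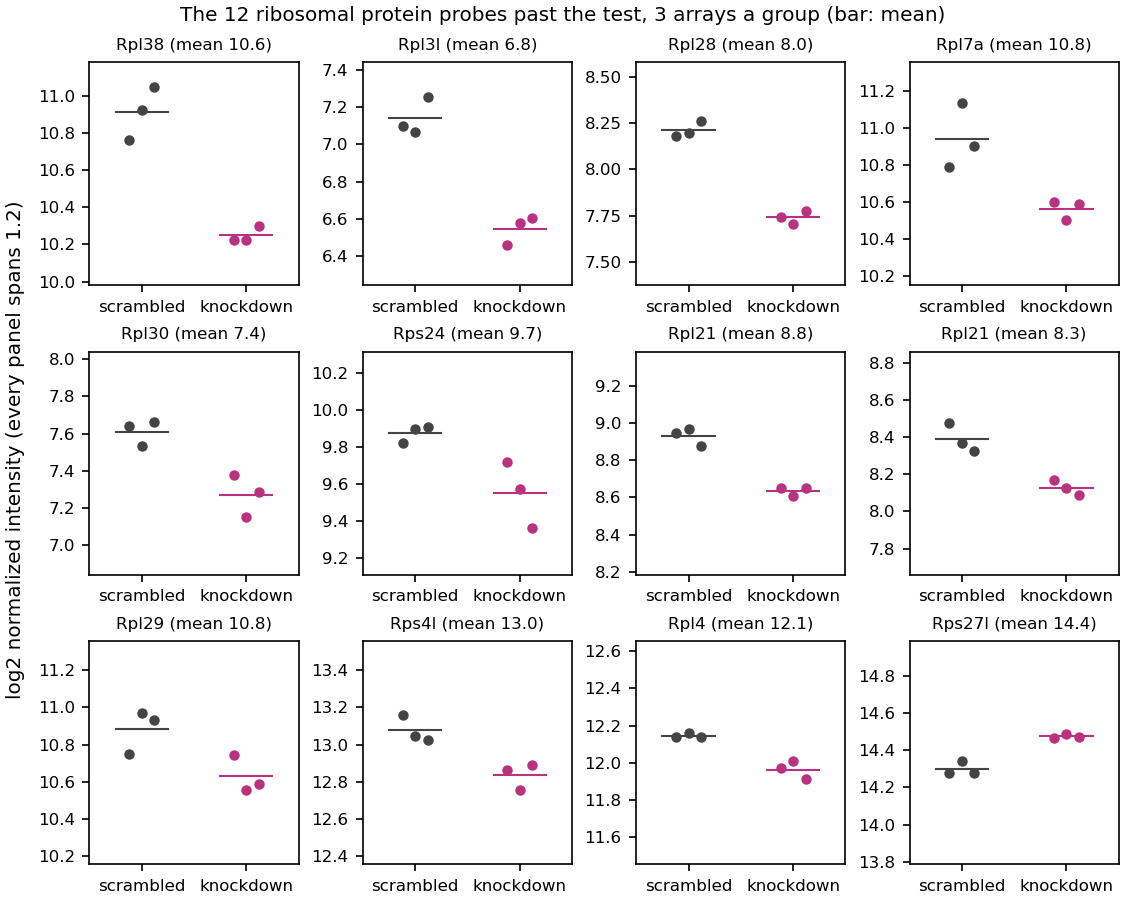
Log2 normalized intensity on each array for the 12 member probes past the test, 3 scrambled (grey) and 3 knockdown (pink) arrays per panel, with the mean as a bar; every panel spans 1.2 on the log2 scale. The largest separation is that of the dimmer Rpl38 probe, and the 1 probe that is higher after knockdown is Rps27l.

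Several genes were measured by more than 1 probe, and their probes did not always give the same result. Of the 14 genes with several kept probes, 6 had a called probe. In 2 of these, Rpl21 and Rpl29, the brightest probe was called, while in 4, Rpl38, Rpl28, Rpl30 and Rps24, it was a dimmer one alone. The annotation assigns all probes of a gene to 1 transcript record in 13 of the 14 genes, Rps24 being the exception. In 5 of the 14 the probes differed in sign, in no case with a call in each direction.

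Rpl38, a large subunit protein whose loss in mice alters the axial skeleton, showed the widest gap. Its dimmer probe read 10.76, 10.93 and 11.05 in scrambled samples and 10.23, 10.22 and 10.30 in knockdown samples. No knockdown array reached the lowest scrambled array, and the change of -0.66 ± 0.09 (SE, adjusted p = 7.54e-04), a 1.58-fold fall, was the largest of all members. The brighter probe of Rpl38 read 15.01, 15.05 and 15.15 against 15.00, 15.02 and 15.05. These groups overlap, and the change was -0.04 ± 0.06 (SE). In raw intensity the dimmer probe ran from 1740 to 2166 in scrambled and from 1257 to 1419 in knockdown samples, and the brighter one from 31428 to 38083 and from 31026 to 35683.

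Rpl28, a large subunit protein, gave opposite signs. The dimmer probe read 8.18, 8.20 and 8.26 in scrambled and 7.74, 7.70 and 7.78 in knockdown samples, a change of -0.47 ± 0.06 (SE, adjusted p = 7.80e-04). The brighter one read 13.75, 13.79 and 13.72 against 13.83, 13.86 and 13.80, a change of 0.08 ± 0.06 (SE) that did not pass the test. In both probes the groups do not overlap, so the dimmer one is lower and the brighter one slightly above on every knockdown array.

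Rpl30 binds the selenocysteine insertion element besides its place in the large subunit. Its dimmer probe read 7.64, 7.53 and 7.66 against 7.38, 7.15 and 7.28 after knockdown, a change of -0.34 ± 0.08 (SE, adjusted p = 0.0117) without overlap. This probe was not called with arrays scaled by the median over all probes (-0.19, adjusted p = 0.0994), and its change was -0.17 in the authors' values (adjusted p = 0.0306). Its brighter probe read 11.32, 11.30 and 11.35 against 11.35, 11.30 and 11.28, a change of -0.01 ± 0.06 (SE). Rps24, a small subunit gene with alternatively spliced last exons, had 3 kept probes. The called one read 9.82, 9.90 and 9.91 in scrambled and 9.72, 9.57 and 9.36 in knockdown samples, which do not overlap, a change of -0.32 ± 0.10 (SE, adjusted p = 0.0304). Leaving out scrambled replicate 2 (-0.31) or 3 (-0.31), or knockdown replicate 2 (-0.33) or 3 (-0.23), ended the call. So did cyclic loess, median scaling over all probes, no filter on dim probes and a replicate block. The other probes of Rps24 had changes of -0.18 and, for the brightest, -0.06, neither past the test.

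**Figure D3:**
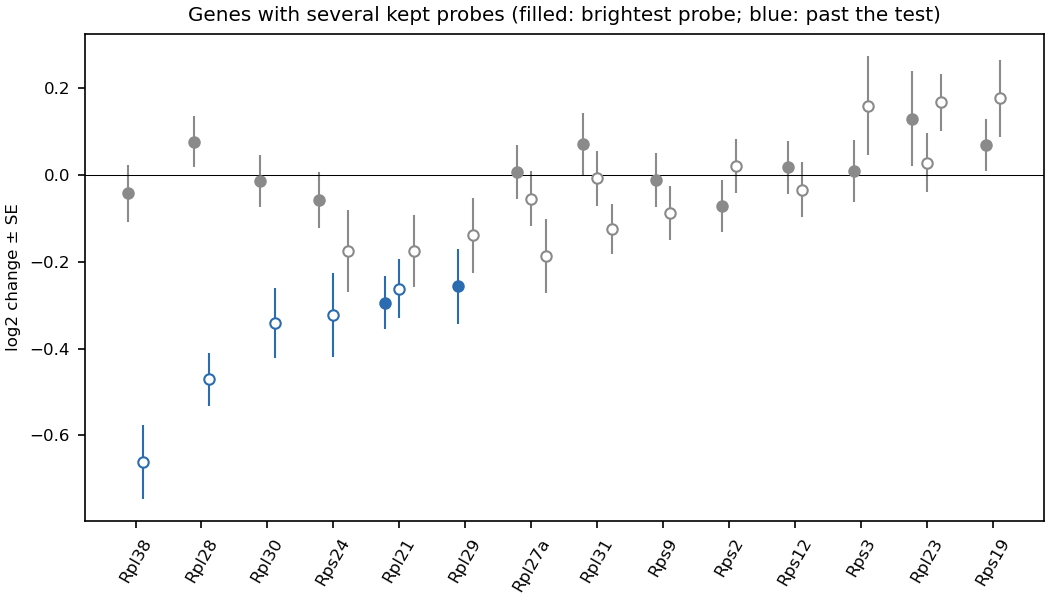
Log2 change ± SE (knockdown minus scrambled) of every kept probe of the 14 genes with several, ordered in each gene from the brightest (filled) to the dimmest probe; blue marks probes past the test. For Rpl38, Rpl28, Rpl30 and Rps24 the brightest probe lies near 0 and a dimmer one is lower.

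The size of the change went with the signal of the probe. Of the 11 member probes with a mean log2 level under 9, 5 were called lower, and of the 12 between 9 and 12, 4 were. Of the 27 between 12 and 14, 2 were called, and of the 22 at 14 and over, 1. The shares of all kept probes called in the same 4 ranges were 42.9%, 48.1%, 33.3% and 4.76%, and the members' shares were 45.5%, 33.3%, 7.41% and 4.55%. In the brightest range 22 of the 105 kept probes were members, and the median size of change was 0.04 both for them and for all 105. The median SE of the members was 0.08 in the dimmest range and 0.06 in the brightest. Across the 72 probes, which share the same 6 arrays, the Pearson correlation of the change with the mean level was 0.49, and that of its size with the level -0.63. Over all kept probes these were -0.02 and -0.12. These ranges were set after the data were seen. A probe's signal depends on its sequence as well as on the amount of mRNA, and quantile normalization sets the brightest values of all arrays to the same distribution, so the ranges sort probes and not genes. The highest raw value of any probe, 47674, was that of a member, and whether the brightest probes were saturated was not tested.

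**Figure D4:**
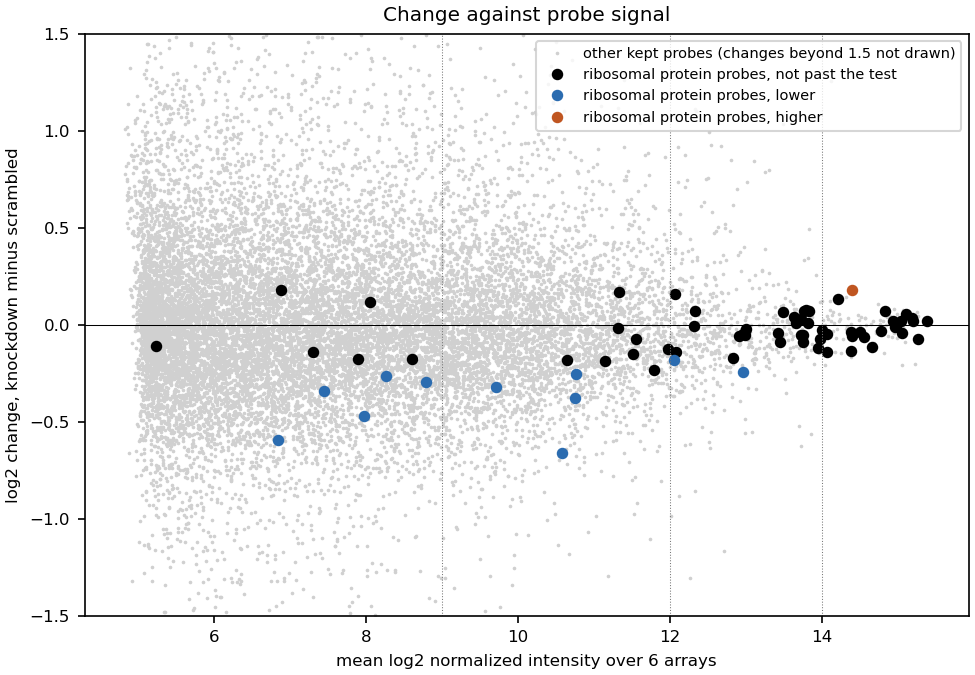
Log2 change (knockdown minus scrambled) against the mean log2 normalized intensity over the 6 arrays, for the 72 member probes (black, or blue and orange where past the test) and all other kept probes (grey); dotted lines mark levels of 9, 12 and 14. Called members lie mostly below 12, and at 14 and over 1 of 22 members is called.

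The ribosomal stalk recruits the GTPase factors that drive initiation and elongation, and none of its 4 measured genes passed the test. Rplp0, its base, came nearest. It read 10.72, 10.81 and 10.68 in scrambled and 10.60, 10.60 and 10.47 in knockdown samples, which do not overlap, with a change of -0.18 ± 0.07 (SE, adjusted p = 0.0762). It was called lower under 4 alternatives: normexp with an offset of 50 (-0.17, adjusted p = 0.0345), no background correction (-0.17, adjusted p = 0.0283), median scaling over the kept probes (-0.24, adjusted p = 0.0369) and a trended and robust prior (-0.18, adjusted p = 0.0153). Rplp1 read 15.39, 15.33 and 15.41 against 15.39, 15.39 and 15.41, and Rplp2 14.47, 14.42 and 14.31 against 14.37, 14.34 and 14.38. Both overlap between groups, with changes of 0.02 ± 0.06 and -0.04 ± 0.07 (SE). Rpl12, which joins the stalk base, had a change of -0.05 ± 0.07 (SE).

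Rps6 is the small subunit protein that S6 kinases phosphorylate below mTORC1. It read 13.80, 13.81 and 13.79 in scrambled samples and 13.70, 13.69 and 13.74 in knockdown samples. Every knockdown array was below every scrambled array, but the change of -0.09 ± 0.06 (SE) did not pass the test (adjusted p = 0.247), and its 95% interval ran from -0.23 to 0.05. Scaled by the median over the kept probes, Rps6 was called lower (-0.22, adjusted p = 0.0326). Rps19, which is needed to process the precursor of the small subunit rRNA and is mutated in Diamond-Blackfan anaemia, read 14.76, 14.78 and 14.83 against 14.87, 14.83 and 14.87 on its brightest probe, a change of 0.07 ± 0.06 (SE). Its dimmer probe read 6.93, 6.72 and 6.71 in scrambled samples and between 6.85 and 7.05 in knockdown samples, which overlap, a change of 0.18 ± 0.09 (SE). That probe was called higher with arrays scaled by the median over all probes (0.35, adjusted p = 0.0110) and in the authors' normalized values (0.17, adjusted p = 0.0266).

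Of the 16 member probes that did not pass the detection filter, 13 were not detected on any array, and 9 belonged to genes with another kept probe. Rpl14, Rpl17, Rpl39l, Rps20, Rps23 and Rpsa had no kept probe. A probe that misses the background gives no level for its gene, and several of these genes encode parts found in nearly all ribosomes. Just inside the filter, the Rpl6 probe was detected on 2 scrambled and 2 knockdown arrays with raw values from 100.1 to 114.5. Just outside it, a second Rpl37 probe was detected on 2 knockdown arrays with raw values from 91.9 to 112.0 over all 6. A further 23 protein-coding RefSeq symbols that fit the rule, Rpl5 and Rpl11 of the 5S particle among them, are not analysed here.

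Genes close to the rule were looked at beside the members. Rps3a1, whose suffix the rule does not allow, had a change of -0.10 ± 0.09 (SE) and did not pass the test. Rpl7l1, a relative of Rpl7, fell by 0.38 ± 0.06 (SE) on its brightest probe (adjusted p = 0.00173), from 11.57, 11.52 and 11.56 to 11.17, 11.17 and 11.19. Rpl22l1, the paralog of Rpl22, fell by 0.60 ± 0.19 (SE, adjusted p = 0.0359) at a low signal, and was detected on 2 of the 3 knockdown arrays. Rpl22 itself, at -0.07 ± 0.06 (SE), did not pass. Rpl36al, at 0.08 ± 0.06 (SE), did not pass either. Together with Rpl3l, Rps4l and Rps27l, 4 of the 6 measured paralogs were lower and 1 was higher, with 2 lower and 0 higher after median scaling over all probes. The shares over all named genes were 24.4% lower and 22.4% higher.

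Other genes of the pathway came from lists of known genes, and each was read on its brightest kept probe. Among all named genes, 22.4% were higher and 24.4% lower. Of 19 measured genes, other than ribosomal proteins, whose mRNAs carry an oligopyrimidine tract, 16 did not pass the test, 2 were higher and 1 was lower, with a median of 0.03 that was below 0 only after median scaling over the kept probes (-0.09) among the 5 scalings. That scaling called 4 of them lower and 1 higher, and scaling over all probes called 3 higher and 0 lower. The elongation factors Eef1a1 and Eef2 had changes of 0.03 ± 0.08 and 0.11 ± 0.06 (SE) on their brightest probes and did not pass. Over the 3 kept probes of each, changes ran from -0.19 to 0.03 for Eef1a1 and from -0.10 to 0.11 for Eef2. The higher ones were Vim, an intermediate filament protein, at 1.89 ± 0.07 (SE) and the histone chaperone Nap1l1 at 0.24 ± 0.06 (SE), and the lower one was the poly(A)-binding protein Pabpc4 at -0.21 ± 0.06 (SE).

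Of 16 measured genes that act on mTORC1 or on oligopyrimidine mRNAs, 3 were higher and 2 were lower. Of all named genes, 22.4% were higher and 24.4% lower. In the authors' normalized values 6 of the 16 were higher and 1 was lower. Ddit4, an inhibitor of mTORC1, rose by 1.42 ± 0.07 (SE), Tsc1, a subunit of a further inhibitor, by 0.36 ± 0.08 (SE), and Mlst8, an mTOR subunit, by 0.20 ± 0.07 (SE). Deptor, which binds and inhibits mTOR, fell by 0.50 ± 0.07 (SE), and Tsc2, the partner of Tsc1, by 0.20 ± 0.06 (SE). Larp1 and Mtor had changes of 0.13 ± 0.12 and -0.16 ± 0.06 (SE) on their brightest probes and did not pass. Over all kept probes of these genes, changes ran from -0.14 to 0.23 for Larp1 and from -0.32 to -0.16 for Mtor. Of the MYC factors, which drive ribosomal protein genes, Myc fell by 0.56 ± 0.16 (SE, adjusted p = 0.0270) and Mycl by 0.52 ± 0.08 (SE, adjusted p = 0.00152), while Max did not pass. Only 1 of these falls was called after median scaling over all probes. The signal of Myc was low, with a mean log2 level of 5.74 in scrambled and 5.18 in knockdown samples. It was detected on 2 of the 3 knockdown arrays. Mycn, also on the list, was not detected on any array. Eef1a1, Eef2, Larp1, Mtor, Max and Mycn, like Rps3a1 and Rpl36al above, were named after their values were seen.

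Chaperones of ribosomal proteins and factors of subunit assembly were lower in 7 of 22 measured cases and higher in 0 by limma, with a median of -0.16. Of all named genes, 24.4% were lower and 22.4% higher. At an unadjusted p under 0.05 the chaperones and assembly factors were lower in 10 cases and higher in 0. After median scaling over all probes 1 was higher and 3 were lower. Sbds, which helps release Eif6 from the large subunit, fell by 0.55 ± 0.07 (SE), Heatr3, which takes part in the nuclear import of Rpl5 in human cells, by 0.41 ± 0.06 (SE), and Tsr1, a small subunit maturation factor, by 0.40 ± 0.06 (SE). For comparison, 23 of 73 mitochondrial ribosomal protein genes were lower and 3 higher (35.6% called, median -0.09; 20 lower and 12 higher in the authors' values), and 9 of 51 translation initiation and elongation factor genes were lower and 4 higher (25.5%, median -0.07). Of these factor genes, 3 were lower and 4 higher when arrays were scaled by the median over all probes (median 0.006), and 17 were lower and 2 higher when scaled over the kept probes. These shares were set beside the members' 13.2% and the 46.8% of all named genes without a test.

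The cells themselves differed between groups. The number of probes detected per array ran from 15720 to 16311 in scrambled and from 16262 to 17105 in knockdown samples, and arrays correlated over the kept probes at 0.994 to 0.996 inside a group and at 0.970 to 0.972 across groups. All 8 embryonic stem cell markers were measured, 7 lower and 1 higher after knockdown, and their summed linear level ran from 73833 to 76188 in scrambled and from 58113 to 60257 in knockdown samples. Such a linear sum rests mostly on its brightest genes, here Dppa5a and Esrrb, at mean log2 levels of 15.33 and 14.03 in scrambled samples. Over all named genes, 24.4% were lower and 22.4% higher. Trophectoderm markers were higher in 6 of 6 measured cases, with a sum of 2203 to 2368 against 4493 to 4753, while Elf5, Hand1 and Eomes were not kept. The brightest kept marker of this list in scrambled samples was Tfap2c, at a mean log2 level of 10.90. Cdx2, Krt19 and Gata3 were detected on knockdown arrays only and passed the filter through them, so they had to differ. Primitive endoderm markers were higher in 5 and lower in 1 of 7, with a sum of 4422 to 4692 against 7684 to 7927, while Gata4, Sox17, Foxa2 and Lamb1 were not kept, and none of 6 fibroblast markers was kept. Their part in the values of the ribosomal proteins was not tested, and in bulk RNA a changed share of cells and a changed level per cell cannot be told apart.

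**Figure D5:**
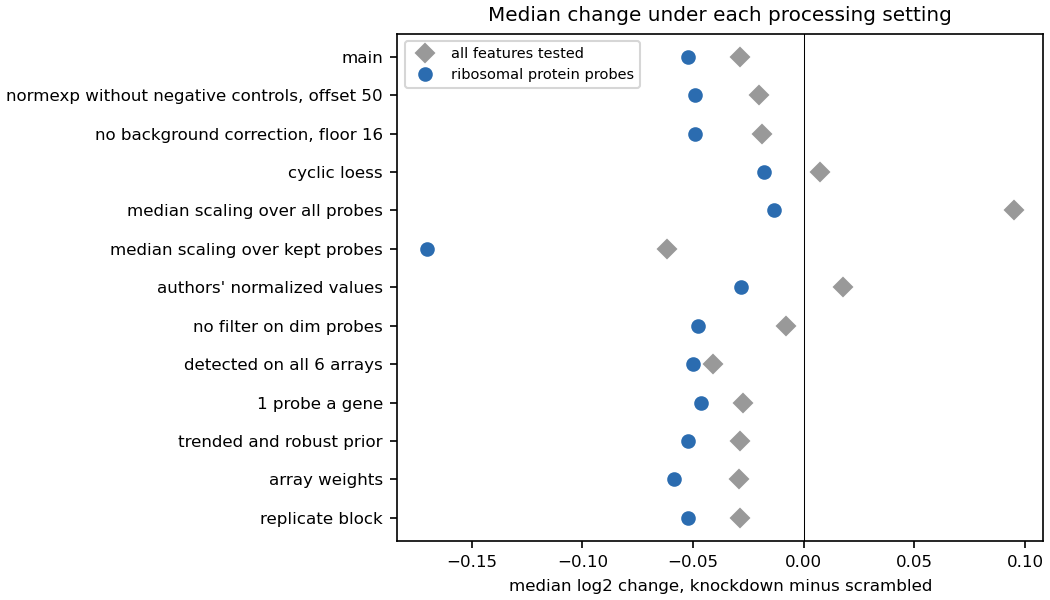
Median log2 change (knockdown minus scrambled) of the member probes (blue circles) and of all features tested (grey diamonds) under each processing setting. The members' median lies below 0 in every setting drawn, from -0.17 after median scaling over kept probes to -0.01 after median scaling over all probes, and below the median of all features in each.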

How the data were processed

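Linear probe intensity, non-normalized per the file headers, came from a table deposited with a detection p-value for each value. The authors' normalized values, a further deposited table of linear intensity, were made by a method that neither labels nor headers name. The function neqc (limma 3.58.1, R 4.3.3) subtracted a background inferred from the detection p-values, added an offset of 16, applied quantile normalization and took log2. Probes with a detection p under 0.01 on at least 3 of 6 arrays were kept, 16674 in all. Gene symbols came from GEO's platform annotation, updated through gene numbers in the RefSeq table of GRCm38.p6.

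Knockdown was compared with scrambled by limma (lmFit and eBayes, 2-sided, no covariates) on every kept probe, because the rule picks probes, with Benjamini-Hochberg adjustment over all of them and calls at an adjusted p under 0.05. Intervals are 95% intervals from the same fit. The fit was tested on simulated arrays in which few probes changed, evenly in both directions. In the data 43.6% of kept probes were called, so the simulation does not test the choice of scaling. Values on every array are given for up to 8 largest called rises and falls without overlap, for genes with calls in both directions, and for members fixed by role. Outside these rules they are also given for Rpl29, Rpl4 and Rpl7l1, and for the brighter probes of Rpl38, Rpl28 and Rpl30. Rps25 was added for its wide interval, after its values were seen. Other genes are named from the lists, up to 3 called ones per list. Members and lists were chosen with earlier results of these data known. With 3 arrays a group, an exact permutation test has a smallest p of 0.1, and this number limits the precision. Alternatives were other background corrections and scalings, the authors' values, other filters, 1 probe a gene, other priors and weights, a replicate block, a wider rule, a stricter threshold and each array left out. Adding Rps3a1 was chosen after seeing the data.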

Additional observations from a re-analysis of the deposited data

How the results depend on the processing

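In every alternative run, the share of member probes called was below that of all features tested, and no called member was called with the opposite sign. None of these runs held the probe signal fixed. From the dimmest to the brightest of the 4 signal ranges above, the members' shares were 45.5%, 33.3%, 7.41% and 4.55%. For all kept probes they were 42.9%, 48.1%, 33.3% and 4.76%. The 3 falls of the dimmer Rpl38 probe, Rpl3l and the dimmer Rpl28 probe were called under every alternative that tested them. The counts of lower and higher member probes and of called genes, 11, 1 and 7, were 7, 1 and 4 with cyclic loess, 4, 1 and 2 after median scaling over all probes, and 21, 0 and 13 after median scaling over the kept probes, where the median was -0.17. When scaled over all probes, the median of all kept probes went from -0.03 to 0.09, and the members' median relative to it from -0.02 to -0.11. The counts were 21, 2 and 15 with a trended and robust prior, and 7, 0 and 3 without the filter on dim probes. At an adjusted p under 0.01 they were 4, 0 and 2. With 1 probe a gene 6 probes were lower. The higher count was 2 with normexp without negative controls, 2 without background correction and 4 in the authors' values. With 1 array left out, 6 to 10 probes were lower, 0 were higher, 2 to 5 genes were called, and the median ran from -0.064 to -0.040. Correlations of deviations between same-numbered arrays ran from -0.006 to 0.015, so the numbers were not taken as pairs; with the replicate block 7 probes were lower, 0 higher and 3 genes called. No slide is named in the labels or headers, so a slide block was not run. The number of arrays and, for dim members such as Rpl6, the signal over background limit what could be detected.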
